A study of Rattus norvegicus with 42 samples.

Results

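The data describe the genes of conjugation and epoxide hydrolysis in rat liver, the second stage of drug and steroid metabolism, under infusion of corticosterone (CORT). Members were the genes whose name in the table of phosphorylated RNA polymerase II began with Ugt1, Ugt2, Sult, Gsta, Gstm, Gstt, Gstp, Gstk, Gsto, Gstz or Ephx. The rule used names and no measured value, and it gave 42 of 26426 named genes, with 127 intragenic regions of 60999. There was 1 Ugt1 gene, 4 Ugt2 genes, 12 Sult genes, 5 Gsta, 7 Gstm, 4 Gstt and 4 Ephx genes, 2 Gsto genes, and 1 gene each of Gstp, Gstk and Gstz.

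All animals were male Sprague Dawley rats with the adrenals removed. The paper timed its experiments so that CORT made outside the adrenals was cleared. After surgery the rats were given dexamethasone, and CORT in their drinking water, which was withdrawn before the infusion. They received CORT complexed with hydroxypropyl-beta-cyclodextrin, or vehicle (VEH), through a vein for up to 180 min, either as short hourly pulses (PULS) or as a constant infusion (CONS). Chromatin immunoprecipitation (ChIP) of the glucocorticoid receptor (GR) and of RNA polymerase II phosphorylated on serine 2 (pSer2 Pol2) was done after pulsatile CORT at 140 min (PEAK_140) and 180 min (NADIR_180), and after constant CORT at the same times (CONS_140 and CONS_180). Each of these groups had 2 libraries, and each library pooled 6 rats. The VEH group of the ChIP held 1 library from 140 min and 1 from 180 min of pulsatile vehicle, here called replicates 1 and 2, so that constant CORT had no vehicle of its own pattern. RNA was sequenced at 180 min in 4 groups of 3 libraries: PULS CORT, PULS VEH, CONS CORT and CONS VEH. Ages were not given in the sources used here.

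UDP-glucuronosyltransferases (Ugt) add glucuronic acid, sulfotransferases (Sult) add a sulfonate group from PAPS, and glutathione S-transferases (Gst) add glutathione. Epoxide hydrolases (Ephx) open reactive epoxides with water. The products are more soluble in water and leave the hepatocyte through transporters into bile or blood. Hepatocytes are the main site of these reactions in the liver, and several of the genes are known to answer to ligand-activated receptors. GR is such a receptor: CORT carries it to the nucleus, where it binds DNA as a dimer at paired half-sites.

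The GR libraries held 2051977 to 6715803 tags, the pSer2 Pol2 libraries 4938473 to 9326927 tags, and the RNA libraries 3956379 to 7777219 reads. The 5 hepatocyte markers summed to 83916 to 137680 CPM (read counts scaled to library size) in the 12 RNA libraries. The sums were 130911 to 136525 CPM in CONS CORT and 83916 to 125017 CPM in CONS VEH, which did not overlap. They were 125881 to 137680 CPM in PULS CORT and 123142 to 130273 CPM in PULS VEH, which did. Of the marker lists of other cell types, the Kupffer cell genes summed to at most 463 CPM and cholangiocyte genes to at most 17.6 CPM, with Krt19 at 0 in all 12 libraries. The 5 stellate cell genes summed to 39.4 to 48.5 CPM in CONS CORT and 23.4 to 34.8 CPM in CONS VEH, which did not overlap, and to 28.1 to 45.3 and 29.6 to 47.4 CPM in PULS CORT and PULS VEH, which did. Of these genes Rgs5 at 1.30 (SE 0.21, adjusted p = 0.000668) and Dcn at 1.16 (SE 0.34, adjusted p = 0.0359) were raised under CONS on the log2 scale. The hepatocyte marker Cps1, an enzyme of the urea cycle, was raised by 0.97 (SE 0.14, adjusted p = 0.000722) under PULS and 1.18 (SE 0.14, adjusted p = 3.37e-05) under CONS. The part of these lists in the results was not tested. In bulk liver, fewer cells of a type and less RNA per cell cannot be told apart. The GR libraries of NADIR_180 stood apart from each other, with median values over all regions of 1.33 and -0.48. The pSer2 Pol2 libraries of CONS_140 did so too, with medians of 2.84 and 2.37.

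The promoter of Sult1a1, the phenol sulfotransferase, is shown first because it was the member promoter where a GR region that gained signal overlapped the start of transcription. That region (rn6, chr1:198103860-198104485) began 376 bases upstream of the Sult1a1 start and ended within the gene. The promoters of Ephx1, the microsomal epoxide hydrolase, are shown because its pSer2 Pol2 signal fell the most among members at the CORT peak. Each sequence gives the 250 bases before a start in RefSeq (GRCr8), in which capitals mark a GR half-site. The Ephx1 downstream start had none.
Sult1a1 (GRCr8, chr1:190706113-190706362, minus strand): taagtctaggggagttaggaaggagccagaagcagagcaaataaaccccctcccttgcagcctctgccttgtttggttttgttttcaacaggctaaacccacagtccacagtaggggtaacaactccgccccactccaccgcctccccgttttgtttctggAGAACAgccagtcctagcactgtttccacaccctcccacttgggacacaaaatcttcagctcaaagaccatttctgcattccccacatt
Ephx1 upstream start (GRCr8, chr13:95275853-95276102, minus strand): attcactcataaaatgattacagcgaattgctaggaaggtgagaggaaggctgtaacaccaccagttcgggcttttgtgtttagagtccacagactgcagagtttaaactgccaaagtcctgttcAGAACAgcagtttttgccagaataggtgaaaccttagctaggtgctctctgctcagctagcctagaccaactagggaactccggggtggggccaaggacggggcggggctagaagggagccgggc
Ephx1 downstream start (GRCr8, chr13:95263118-95263367, minus strand): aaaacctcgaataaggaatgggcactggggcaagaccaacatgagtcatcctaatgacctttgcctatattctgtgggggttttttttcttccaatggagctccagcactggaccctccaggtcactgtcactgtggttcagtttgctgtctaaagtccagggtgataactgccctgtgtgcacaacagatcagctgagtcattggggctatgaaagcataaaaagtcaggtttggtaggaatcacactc
RefSeq gave promoters for 34 of the 42 members, with 37 starts. The full GR motif searched, GNACA and TGTNC joined by a spacer of NNN, reads alike on both strands and was found at 0 of the 37 starts and in 0.373% of 33469 promoters of the same length. The half-site AGAACA, or TGTTCT on the other strand, was found at 13 of the 37 starts and in 17.5% of all promoters. It is a part of some forms of the full motif. The half-site was searched after the full motif had given no match. The GR data were on rn6 and the promoters on GRCr8, so the starts may differ, and the half-site of Sult1a1, which begins 89 bases before the RefSeq start, was not placed within the GR region.

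The first question was where GR bound near these genes. A GR region, one of the 3981 regions that the authors merged from their peak lists, was counted for a member when its centre lay within 50 kb of one of its starts. This gave 26 regions, and 22 of the 42 members (52.4%) had at least 1, against 16.9% of all genes in the table. Members with several starts had more chances to be counted. Neighbours in a cluster shared regions, and 15 members were the nearest to a region. The 16.9% also covers genes without pSer2 Pol2 tags. Among genes with tags, 20 members had a region and 14 had none, against 3819 and 12749 of all genes. Whether members had more GR regions was not tested. Of the 26 regions, 12 lay on chromosome 14, where 7 members stand side by side: Sult1e1, Sult1d1, Sult1b1, Ugt2a3, Ugt2b, Ugt2b35 and Ugt2b17. The authors' peak lists held 25 of the 26 regions at PEAK_140, 13 at CONS_140, 21 at CONS_180 and 0 at NADIR_180 and in VEH. The regions were thus picked as peaks in the same libraries that are compared below. This choice favoured high values in the groups that listed a region as a peak, which were PEAK_140 and both CONS groups. It gave no such lift to VEH and NADIR_180. The GR counts and p-values below therefore describe the regions and are no independent test of binding.

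GR values are on a log2 scale with input tags subtracted, and values below 0 mean few or no tags. In VEH, 15 of the 26 regions were below 0 in both libraries, as were 53.0% of all regions. Differences from VEH are therefore fitted values that depend on the authors' shrinkage at low tags. They are not bounds. The strongest region at PEAK_140 lay upstream of Sult1e1, the estrogen sulfotransferase (chr14:22055997-22056667, 15692 bases before the start). It had values of 1.51 and -0.47 in VEH, 7.58 and 7.31 at PEAK_140, 4.11 and 0.00 at NADIR_180, 6.87 and 7.34 at CONS_140 and 6.67 and 6.72 at CONS_180. Every PEAK_140 and CONS library was above both VEH and both NADIR_180 libraries. A second region of Sult1e1, 7157 bases before the start, was at 5.91 and 5.64 at PEAK_140 and below 0 in both VEH and both NADIR_180 libraries.

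The region 9054 bases before a start of Ugt2a3, a UDP-glucuronosyltransferase, kept signal at the trough (chr14:22183603-22184228). This start belongs to another Ugt2a3 locus than the one whose pSer2 Pol2 rose, given below. It was below 0 in VEH (-0.30 and -0.51), reached 6.72 and 7.06 at PEAK_140, and was still at 3.50 and 4.13 at NADIR_180. The difference from VEH was 7.29 (SE 0.41, adjusted p = 7.98e-06) at PEAK_140 and 4.22 (SE 0.41, adjusted p = 0.000958) at NADIR_180 by limma. The same region is also within 50 kb of Sult1b1, a sulfotransferase that acts on thyroid hormones. The region 7602 bases into Ugt2a3, in an exon, was at 6.36 and 6.45 at PEAK_140 and at 2.00 and -0.28 at NADIR_180, where its libraries lay apart. The second region with a call at the trough was 11838 bases before a start of Ugt2b, another member of that family (chr14:22405002-22405734). Its values were 0.82 and 1.25 in VEH, 6.59 and 6.27 at PEAK_140 and 3.77 and 3.56 at NADIR_180. Its difference from VEH at NADIR_180 was 2.63 (SE 0.44, adjusted p = 0.00756).

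The region at the Sult1a1 promoter was at 1.95 and -0.58 in VEH, 6.76 and 6.40 at PEAK_140, 3.49 and 1.10 at NADIR_180, 5.88 and 5.92 at CONS_140 and 5.54 and 5.32 at CONS_180. The difference from VEH was 5.89 (SE 0.93, adjusted p = 0.000533) at PEAK_140 and 5.21 (SE 0.93, adjusted p = 0.00129) at CONS_140. At the trough it did not pass the test (difference 1.61 (SE 0.93, adjusted p = 0.419)), and the VEH and NADIR_180 libraries overlapped. The glutathione S-transferases had 1 region near Gsta1, 5 near the Gstm cluster, 2 near the Gstt cluster and 1 near Gstp1. The Gsta1 region, 16188 bases before the start (chr9:27468778-27469403), was at 5.07 and 4.57 at PEAK_140 and at -0.78 and -0.62 at NADIR_180. Gstp1 had its region 33702 bases before the start, nearer to Cabp2, with 5.10 and 5.46 at PEAK_140.

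Across the 26 regions, 24 were raised at PEAK_140 against VEH (all regions 78.6%), 2 at NADIR_180 (all regions 7.44%), 19 at CONS_140 (all regions 64.7%) and 20 at CONS_180 (all regions 67.9%), with none lowered by limma. A call meant an adjusted p under 0.05 and more than 1.5-fold. Median differences were 4.53, 1.51, 4.22 and 4.12 near members and 4.17, 0.84, 3.38 and 3.46 over all regions, in the same order. All of these contrasts share the same 2 VEH libraries, and the regions were picked as peaks in these same data. The 2 regions not raised at PEAK_140 lay 1342 bases before Sult1e1 and 82 bases into Gstt1. The Gstt1 region (chr20:13798871-13799496) held signal in every library, with 2.98 and 2.56 in VEH and 2.58 and 2.04 at PEAK_140.

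Between peak and trough of the pulse, 19 of the 26 regions were higher at PEAK_140 than at NADIR_180 (all regions 68.8%), and 16 were higher at CONS_180 than at NADIR_180 (all regions 49.6%). Between PEAK_140 and CONS_140 limma called 0 regions (all regions called 0.0502%). At an unadjusted p under 0.05 there were 2, with no share of all regions given at that rule. With every library centred to the same median, 2 of the 24 regions kept a call at PEAK_140 and 0 of 2 at NADIR_180. Of the 24 differences at PEAK_140, 11 turned below 0. The regions that kept the call were both named by Ugt2a3, from different starts, at 2.67 and 2.41. The Gstt1 region was called lower at -5.07. Shares of all regions called after centring are not given. Centring removes a shift shared by most regions. The median difference of all regions from VEH at PEAK_140 was 4.17 before centring and -0.45 after it. Without NADIR_180 replicate 2, the library left in that group had a median of 1.33 over all regions, against -0.65 and -0.86 in VEH. From 140 to 180 min, 14 regions fell more under PULS than under CONS (all regions 43.6%). With 1 library left out at a time this count was 7 to 15, and it was 0 after centring.

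**Figure D1:**
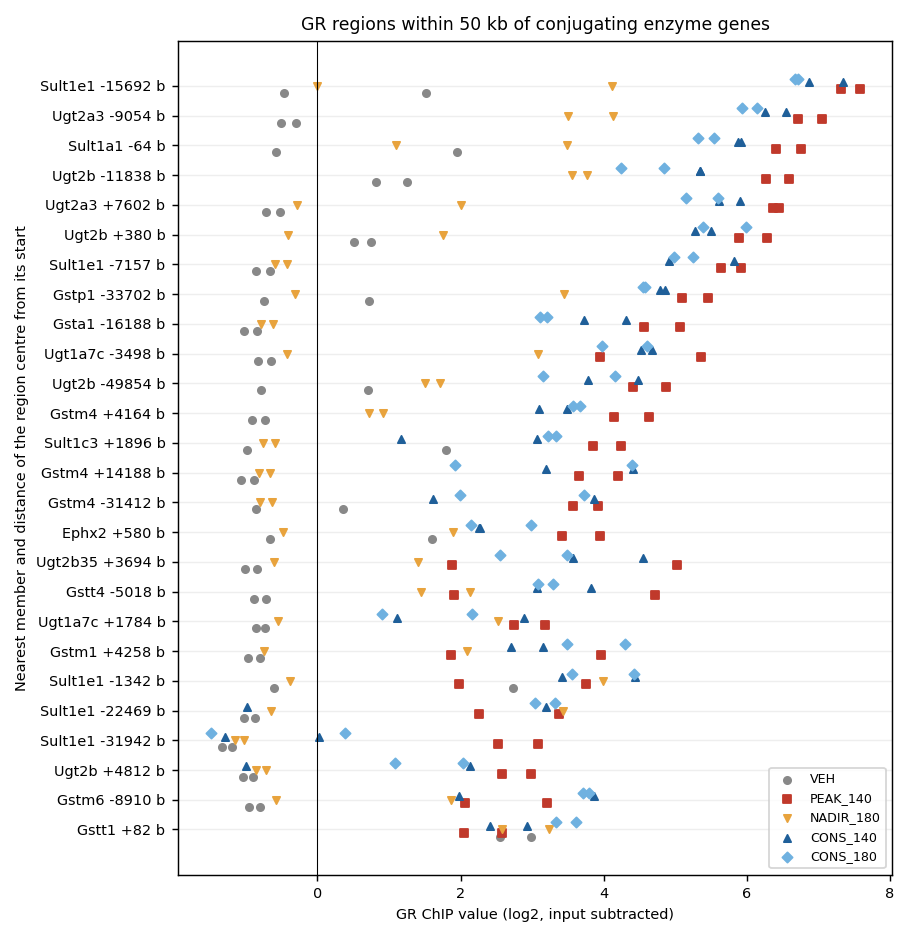
GR ChIP value (log2, input subtracted, horizontal axis) of the 26 regions, ordered by their PEAK_140 mean and named by the nearest member and the distance in bases from its start, with 2 libraries for each group as points. PEAK_140 and CONS points lie to the right of VEH at most regions, the NADIR_180 points of Ugt2a3 -9054 stay at 3.50 and 4.13, and the points of Gstt1 +82 lie between 2.04 and 3.61.

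The second question was whether elongating polymerase on the genes followed. pSer2 Pol2 marks polymerase that is moving through a gene, and its value was given on a log2 scale for each transcript over at most 10 kb from the start. These values are not per length, so levels are compared between groups and not between genes. Of the 42 members, 34 had tags in some region. Values are those of the region with the highest mean for each gene unless another is named, and gene and transcript rows often cover the same interval. At PEAK_140, 1 member was raised (all genes 0.38%) and 6 were lowered (all genes 0.634%). At NADIR_180 limma called 0 members (all genes called 0.00604%). At an unadjusted p under 0.05 in any region there were 8, with no share of all genes given at that rule. At CONS_140, 3 were raised (all genes 0.646%) and 1 was lowered (all genes 0.175%). At CONS_180, 1 was raised (all genes 0.181%). The median difference over the 34 members was -0.26 at PEAK_140 and 0.00 at CONS_140, against -0.05 and 0.15 over the genes tested. These calls rest on 2 libraries a group: with 1 library left out at a time, PEAK_140 gave 0 to 6 called members and CONS_140 gave 0 to 9, and a fit on only the libraries compared gave 0 in each. The 6 at PEAK_140 came without either CONS_140 library (all genes called 0.513%). The 9 at CONS_140 came without CONS_140 replicate 2 (all genes called 15.8%), while without CONS_140 replicate 1 there were 0 raised and 4 lowered (all genes called 0.229%). With centred libraries 4 members were raised and 10 lowered at PEAK_140 (all genes 0.815% and 1.25%), 4 were raised and 4 lowered at CONS_140 (all genes 1.13% and 0.604%), and 4 were raised and 2 lowered at CONS_180 (all genes 0.543% and 0.26%). The directions of the called members did not reverse in any of these fits, but most of the fits could hardly change them. A fit on only the libraries compared, or without a library of another group, leaves the difference itself the same. Centring moved the differences little, as for Ephx1 at PEAK_140 from -5.45 to -5.36.

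Ugt2a3 was raised at every CORT time but the trough. Its region on chromosome 14 (chr14:22251499-22261499, plus strand) was at 4.22 and 2.79 in VEH, 6.42 and 6.71 at PEAK_140, 2.79 and 2.70 at NADIR_180, 7.68 and 7.22 at CONS_140 and 7.28 and 7.30 at CONS_180. PEAK_140 and CONS libraries did not overlap with VEH, and both NADIR_180 libraries lay just under the lower VEH library. The difference from VEH was 3.06 (SE 0.43, adjusted p = 0.00681) at PEAK_140, 3.95 (SE 0.43, adjusted p = 0.00193) at CONS_140 and 3.79 (SE 0.43, adjusted p = 0.00360) at CONS_180. PEAK_140 exceeded NADIR_180 by 3.82 (SE 0.43, adjusted p = 0.00301), and CONS_180 exceeded NADIR_180 by 4.55 (SE 0.43, adjusted p = 0.00289). The 3 differences from VEH held in 3, 8 and 3 of 10 fits with a library left out. The GR region in its exon lies within this interval, and the other loci that carry the name Ugt2a3 had values under 1 in every library.

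Ugt2b and Sult1b1, the neighbours of Ugt2a3, were raised at CONS_140. Ugt2b (chr14:22417206-22427206, plus strand) was at 8.22 and 8.04 in VEH, 9.15 and 9.73 at PEAK_140, 8.11 and 8.07 at NADIR_180, 10.09 and 10.00 at CONS_140 and 9.68 and 9.89 at CONS_180, with a difference at CONS_140 of 1.91 (SE 0.30, adjusted p = 0.0126). Sult1b1 (chr14:22142364-22152364, plus strand) was at 8.02 and 8.05 in VEH, 8.98 and 9.46 at PEAK_140, 7.84 and 7.68 at NADIR_180, 9.93 and 9.73 at CONS_140 and 9.36 and 9.80 at CONS_180. Its difference at CONS_140 was 1.80 (SE 0.31, adjusted p = 0.0206), and those at PEAK_140 (1.18 (SE 0.31, adjusted p = 0.152)) and CONS_180 (1.55 (SE 0.31, adjusted p = 0.103)) did not pass the test. With centred libraries these 2 were called, at 1.27 and 1.58. For both genes the PEAK_140 and CONS libraries all lay above VEH, and the NADIR_180 libraries lay within or below the range of VEH. The call of Ugt2b held in 5 and that of Sult1b1 in 3 of 10 fits with a library left out.

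The Ugt2b name covers several loci. Its annotated first locus (chr14:22375955-22385955, plus strand) had 8.58 and 8.62 in VEH and 7.17 and 7.95 at PEAK_140, with a difference of -1.04 (SE 0.33, adjusted p = 0.385) that did not pass the test. Its value lay below VEH, whereas the locus with the call lay above. Further along the cluster, Ugt2b35 was at 9.01 and 9.02 in VEH and 7.11 and 7.90 at PEAK_140, and Ugt2b17 was at 5.47 and 5.24 and 3.88 and 3.88. Both lay below VEH, but neither difference passed the test (adjusted p = 0.0774 and 0.0588). With centred libraries both were called lower, Ugt2b35 at -1.42 and Ugt2b17 at -1.38. At the other end of the cluster, Sult1e1 was at 11.14 and 11.17 in VEH, 9.95 and 10.29 at PEAK_140 and 10.08 and 9.79 at NADIR_180. It had the strongest GR region of the family, and its pSer2 Pol2 value lay below VEH in every CORT library, with no call (at PEAK_140 -1.04 (SE 0.26, adjusted p = 0.127)). With centred libraries it was called lower at PEAK_140, at -0.95.

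Sult1a1 (chr1:198100586-198104109, minus strand) was at 7.22 and 6.78 in VEH, 8.43 and 8.53 at PEAK_140, 7.29 and 7.53 at NADIR_180, 8.60 and 8.31 at CONS_140 and 8.53 and 8.23 at CONS_180. All PEAK_140 and CONS libraries were above both VEH and both NADIR_180 libraries. The differences did not pass the test, with 1.48 (SE 0.32, adjusted p = 0.0639) at PEAK_140, 1.46 (SE 0.32, adjusted p = 0.0787) at CONS_140 and 1.38 (SE 0.32, adjusted p = 0.196) at CONS_180. With centred libraries all of these were called, at 1.57, 1.32 and 1.42.

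**Figure D2:**
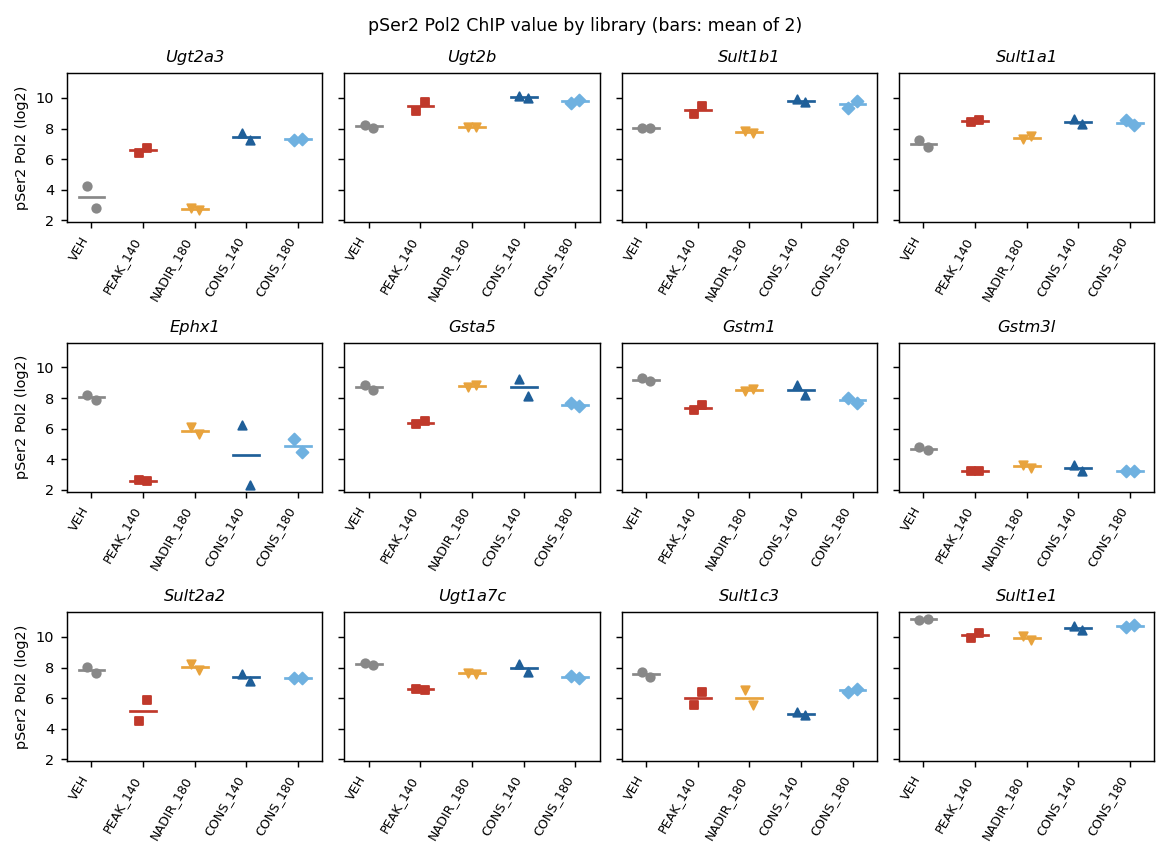
pSer2 Pol2 ChIP value (log2) by group for 12 members, with each of the 2 libraries of a group as a point and their mean as a bar. Ugt2a3 is at 4.22 and 2.79 in VEH and 7.68 and 7.22 at CONS_140, while Ephx1 is at 8.22 and 7.90 in VEH and 2.65 and 2.57 at PEAK_140.

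The 6 members lowered at PEAK_140 came from the Ephx, Gsta, Gstm, Sult and Ugt1 families. Ephx1 had the largest fall of the 34 members. Its region from the downstream start (chr13:99277887-99287887, minus strand) was at 8.22 and 7.90 in VEH, 2.65 and 2.57 at PEAK_140, 6.12 and 5.62 at NADIR_180, 6.25 and 2.33 at CONS_140 and 5.31 and 4.46 at CONS_180. All CORT libraries were below both VEH libraries, and the CONS_140 libraries lay far apart from each other. The difference at PEAK_140 was -5.45 (SE 0.90, adjusted p = 0.0149), and it held in 2 of 10 fits with a library left out. The region from the upstream start was at 7.004 and 6.64 in VEH and 2.97 and 2.92 at PEAK_140, with a difference of -3.88 (SE 0.85, adjusted p = 0.0722) that did not pass. No GR region lay within 50 kb of Ephx1.

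Among the glutathione S-transferases, Gsta5, of the alpha class, and Gstm1 and Gstm3l, of the mu class, fell. Gsta5 (chr8:85553734-85563734, plus strand) was at 8.86 and 8.55 in VEH, 6.32 and 6.48 at PEAK_140, 8.72 and 8.86 at NADIR_180, 9.23 and 8.17 at CONS_140 and 7.66 and 7.49 at CONS_180. The NADIR_180 libraries overlapped with VEH, and both PEAK_140 libraries were the lowest of the 10. Its differences were -2.31 (SE 0.37, adjusted p = 0.0138) from VEH and -2.39 (SE 0.37, adjusted p = 0.0177) from NADIR_180. Gstm1 (chr2:210803869-210809306, minus strand) was at 9.30 and 9.11 in VEH, 7.21 and 7.55 at PEAK_140, 8.49 and 8.59 at NADIR_180, 8.87 and 8.22 at CONS_140 and 8.03 and 7.70 at CONS_180, with a difference at PEAK_140 of -1.82 (SE 0.33, adjusted p = 0.0255). Every CORT library was below VEH. Gstm3l (chr2:210761729-210766501, minus strand) was at 4.79 and 4.59 in VEH and 3.26 and 3.26 at PEAK_140, close to the lowest value of its 10 libraries. Its difference was -1.43 (SE 0.26, adjusted p = 0.0238). Each of these calls held in 2 of 10 fits with a library left out. Gstm2, with 8.87 and 8.57 in VEH and 6.54 and 6.29 at PEAK_140, did not pass the test (adjusted p = 0.149), but was called lower with centred libraries at -2.21. Centring also gave lower calls for Gstm2 and Gstm3l at CONS_140 and for Gstm1 and Gstm3l at CONS_180.

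Sult2a2, a hydroxysteroid sulfotransferase, fell at PEAK_140, and no other CORT group passed the test against VEH. Its region (chr1:76604326-76614326, minus strand) was at 8.03 and 7.66 in VEH, 4.52 and 5.87 at PEAK_140, 8.26 and 7.85 at NADIR_180, 7.60 and 7.11 at CONS_140 and 7.34 and 7.34 at CONS_180. The differences of PEAK_140 were -2.65 (SE 0.44, adjusted p = 0.0150) from VEH and -2.85 (SE 0.44, adjusted p = 0.0160) from NADIR_180, and the overlapping region with the greatest change gave -2.82 (SE 0.50, adjusted p = 0.0218) and -3.04 (SE 0.50, adjusted p = 0.0232). With the replicate number as a block, the difference of the first region from NADIR_180 had an adjusted p of 0.0480. The calls of the first region held in 1 of 10 fits with a library left out, that without PEAK_140 replicate 2. Ugt1a7c carries the regions of the Ugt1a locus, whose transcripts start at separate first exons and share their later exons. Its region from the last annotated start (chr9:95295701-95302822, plus strand) was at 8.30 and 8.14 in VEH, 6.62 and 6.55 at PEAK_140, 7.67 and 7.60 at NADIR_180, 8.26 and 7.70 at CONS_140 and 7.45 and 7.30 at CONS_180, with a difference at PEAK_140 of -1.63 (SE 0.32, adjusted p = 0.0358). The region next to it (chr9:95285592-95295592, plus strand) gave -2.31 (SE 0.36, adjusted p = 0.0114). The call of the region from the last start held in 2 of 10 fits with a library left out, and Dnajb3 lies within this locus. Sult1c3 was lowered at CONS_140: it was at 7.74 and 7.40 in VEH and 5.10 and 4.89 at CONS_140 (chr9:4935352-4945352, minus strand), with a difference of -2.58 (SE 0.40, adjusted p = 0.0126). Its region from another start gave -3.36 (SE 0.58, adjusted p = 0.0214). The call of the first of these regions held in 3 of 10 fits with a library left out.

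PEAK_140 and CONS_140 were compared directly. Limma called 0 members (all genes called 0.0302%), so the calls above do not show that a member differed between the patterns at 140 min. An unadjusted p under 0.05 in any region was found for 10 of 34, with no share of all genes given at that rule. With the replicate number as a block, since same-numbered pSer2 Pol2 libraries deviated together, 2 members were lower at PEAK_140 (all genes called 2.05%): Gsta5 at -2.30 and Ugt1a7c at -1.40 on the log2 scale. Without CONS_140 replicate 2, 13 members were lower at PEAK_140 (all genes called 23.8%), among them Ephx1, Gsta5, Gstm1, Sult2a2 and Ugt1a7c. For the fall from 140 to 180 min, PULS minus CONS, limma called 0 members (all genes called 0.0664%). There 12 of 34 had an unadjusted p under 0.05 in any region, again with no share of all genes given. The block gave 1 call, Ugt2a3 at 3.66 (all genes called 0.115%), and leaving out CONS_140 replicate 2 gave 13 (all genes called 21.2%). Between PEAK_140 and NADIR_180, 1 member was raised (all genes 0.26%) and 2 were lowered (all genes 0.247%), and between CONS_180 and NADIR_180, 1 was raised (all genes 0.169%).

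**Figure D3:**
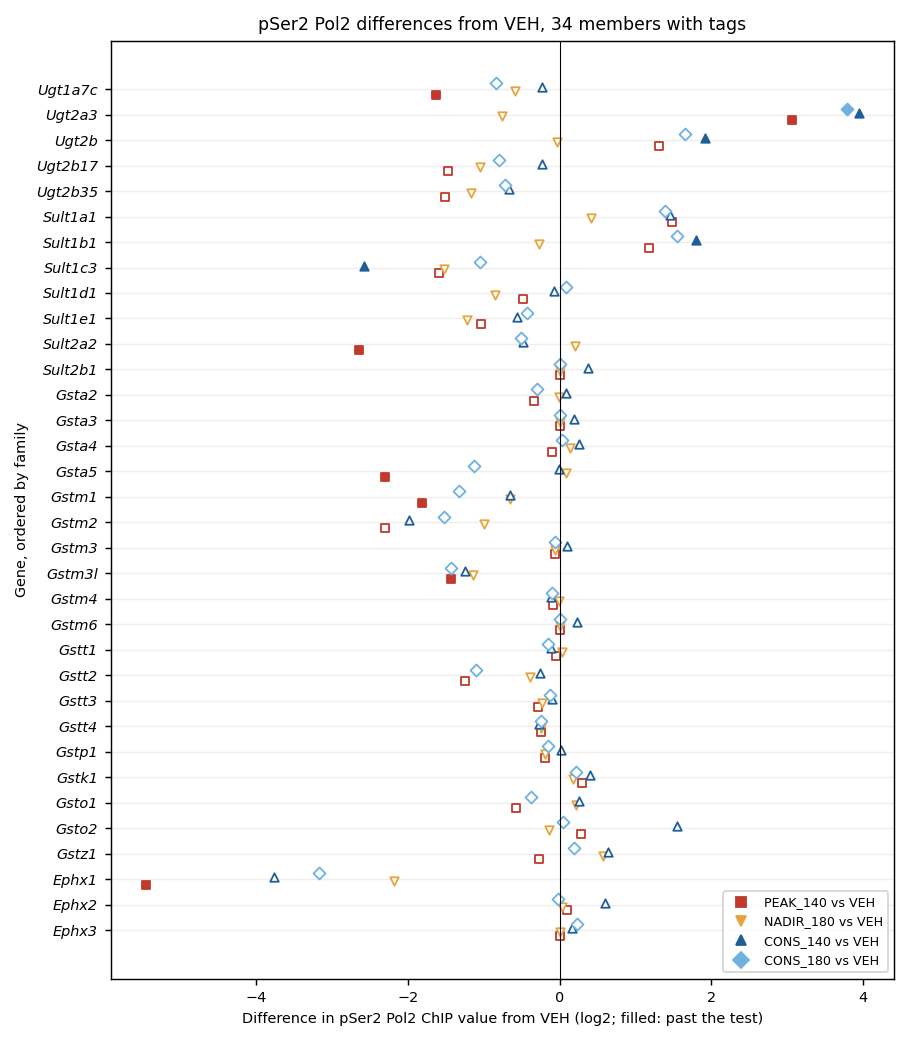
Difference in pSer2 Pol2 ChIP value from VEH (log2) for the 34 members with tags, ordered by family, with filled symbols for differences past the test. Ugt2a3 stands to the right at PEAK_140 and both CONS times, and Ephx1 at -5.45 at PEAK_140 is the lowest value plotted. All groups share the same VEH libraries.

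The third question was what RNA did at 180 min. Of the 42 members, 29 had more than 10 reads over the 12 libraries and were tested. Of the other 13, 8 were at 0 in all 12 libraries: Gsta3, Gstm3l, Gstm6, Gstm6l, Gsto1, Sult1c2a, Ugt2b and Ugt2b35. Ugt2b, Ugt2b35, Gsto1 and Gstm3l had pSer2 Pol2 signal all the same, and Gsta1 had 260 CPM of RNA but no pSer2 Pol2 tags. On the same strand, Ugt2b and Ugt2b35 lie within the span of the Ugt2a3 regions. Likewise Gstm3l and Gstm6 lie within that of Gstm2, and Gsto1 within that of Gsto2. A 0 for a gene with near-identical or overlapping relatives can come from how reads that fit several genes were counted, which was not tested. The other 5, Ephx3, Ephx4, Gstt4, Sult4a1 and Sult5a1, had 1 to 9 reads. The highest mean levels, not scaled for length, were 1778 CPM for Sult1e1, 1063 CPM for Ephx1 and 1009 CPM for Gstm2.

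Pulsatile CORT raised 2 members (all genes 1.79%) and lowered 0 (all genes 2.44%) by edgeR's quasi-likelihood test. At an unadjusted p under 0.05 there were 7 of 29, with no share of all genes given at that rule. Constant CORT raised 2 (all genes 4.45%) and lowered 1 (all genes 4.75%). The median log2 difference over the 29 members was 0.09 under PULS and -0.12 under CONS, against -0.01 in both over all genes tested. Sult1b1 was raised in both patterns. It had 194, 196 and 224 CPM in PULS VEH and 466, 492 and 438 CPM in PULS CORT, with a log2 difference of 1.18 (SE 0.11, adjusted p = 2.02e-05). It had 240, 248 and 268 CPM in CONS VEH and 471, 469 and 494 CPM in CONS CORT, a difference of 0.92 (SE 0.11, adjusted p = 2.61e-05). CORT and VEH libraries did not overlap in either pattern, and both calls held with each of the 12 libraries left out.

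Sult1a1 was raised under PULS, with 175, 170 and 242 CPM in PULS VEH and 369, 397 and 375 CPM in PULS CORT, a log2 difference of 0.96 (SE 0.18, adjusted p = 0.00497). Under CONS it had 222, 377 and 311 CPM in VEH and 334, 331 and 415 CPM in CORT, a difference of 0.25 (SE 0.18, adjusted p = 0.421) in which the groups overlapped. The CORT libraries of both patterns overlapped, and so did the VEH libraries. The difference of the responses, CONS minus PULS, was -0.71 (SE 0.25, adjusted p = 0.232) and did not pass the test. Without CONS VEH replicate 1, the lowest of its group, it was -0.89 and was called. The share of all genes called in that fit is not given. Ugt2a3 had 530, 456 and 454 CPM in PULS VEH and 674, 703 and 696 CPM in PULS CORT, then 494, 511 and 546 CPM in CONS VEH and 820, 799 and 743 CPM in CONS CORT. The groups did not overlap in either pattern. The difference was 0.61 (SE 0.11, adjusted p = 0.00126) under CONS, which was called, and 0.53 (SE 0.11, adjusted p = 0.00952) under PULS, which passed the p threshold but was under 1.5-fold. The call under CONS fell below 1.5-fold without CONS CORT replicate 1 or CONS VEH replicate 1, at 0.58 and 0.57. Gstk1, the kappa class enzyme of mitochondria and peroxisomes, was also under 1.5-fold at 0.47 (SE 0.12, adjusted p = 0.0353) under PULS.

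Sult2b1, a cholesterol sulfotransferase, was lowered under CONS at a level near 1 CPM. It had 2.44, 2.20 and 1.27 CPM in CONS VEH and 0.203, 0.563 and 0.537 CPM in CONS CORT, a difference of -2.09 (SE 0.57, adjusted p = 0.0237). The call was lost without any of 5 libraries: the 3 CONS CORT libraries (-1.82, -2.33 and -2.21), CONS VEH replicate 1 (-1.86) and CONS VEH replicate 2 (-2.04). It was not tested under edgeR's own filter on low counts.

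By family, 6 of the 9 tested Sult genes, 1 of the 2 tested Ugt2 genes and all tested Ugt1, Gst and Ephx genes had no RNA call under PULS or CONS. Sult1e1 had 1844, 1631 and 1376 CPM in PULS VEH, 1877, 2376 and 1674 CPM in PULS CORT, 2247, 2153 and 1750 CPM in CONS VEH and 1079, 1856 and 1475 CPM in CONS CORT. Its differences, 0.29 (SE 0.19, adjusted p = 0.424) under PULS and -0.48 (SE 0.19, adjusted p = 0.113) under CONS, did not pass. Sult1c3 differed by -0.36 (SE 0.17, adjusted p = 0.262) and -0.53 (SE 0.17, adjusted p = 0.0531), and Ugt2b17, which glucuronidates androgens, by 0.24 (SE 0.23, adjusted p = 0.637) and -0.26 (SE 0.23, adjusted p = 0.540), in the same order.

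The glutathione S-transferases and epoxide hydrolases had no RNA call, and their log2 differences are given by class. Over the 4 tested Gsta genes, which had means of 38.3 (Gsta2), 92.3 (Gsta4), 260 (Gsta1) and 456 CPM (Gsta5), they ran from -0.66 to 0.16 under PULS and from -0.40 to -0.09 under CONS. Over the 4 tested Gstm genes they ran from -0.11 to 0.28 under PULS and from -0.13 to 0.07 under CONS. Gstm4 had a mean of 28.5 CPM. Over the 3 tested Gstt genes, Gstt1, Gstt2 and Gstt3, they ran from -0.09 to 0.33 and from -0.30 to 0.01. Gstp1 of the pi class was low at a mean of 7.35 CPM, and Gsto2 of the omega class, which overlaps Gsto1, at 3.33 CPM. Gstz1 had a mean of 247 CPM and differed by 0.36 (SE 0.13, adjusted p = 0.118) under PULS and -0.31 (SE 0.13, adjusted p = 0.137) under CONS. Ephx2, the soluble epoxide hydrolase, had 26.4, 8.38 and 15.4 CPM in CONS VEH and 30.1, 27.6 and 23.1 CPM in CONS CORT, a difference of 0.63 (SE 0.31, adjusted p = 0.212) that did not pass.

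The members whose pSer2 Pol2 fell at PEAK_140 were not called in RNA at 180 min. Ephx1 had 1094, 1019 and 772 CPM in PULS VEH and 1186, 1080 and 961 CPM in PULS CORT, a difference of 0.16 (SE 0.19, adjusted p = 0.705). Gsta5 had 672, 290 and 364 CPM in PULS VEH and 335, 386 and 308 CPM in PULS CORT (-0.37 (SE 0.23, adjusted p = 0.412)), and Gstm1 had 631, 528 and 513 and 618, 582 and 510 CPM (0.03 (SE 0.16, adjusted p = 0.943)). Sult2a2 had 539, 1901 and 650 CPM in PULS VEH, where replicate 2 stood far above the others, and 278, 772 and 692 CPM in PULS CORT. Ugt1a7c differed by -0.03 (SE 0.16, adjusted p = 0.946), and Gstm3l was at 0 reads. The polymerase was measured at 140 min and RNA at 180 min in other libraries, so the times are set side by side and not compared.

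The responses to CONS and PULS differed for 0 members by edgeR (all genes called 0.0284%). At an unadjusted p under 0.05 there were 6 of 29, with no share of all genes given at that rule. DESeq2 called 1, Gstz1, which also acts in tyrosine breakdown, at -0.68 (share of all genes under that fit not given). CONS VEH and PULS VEH differed for 0 members, with 9 of 29 at an unadjusted p under 0.05 (all genes called 0%, at an unadjusted p 9.13%). DESeq2 called 1, Gstt3, here too without a share of all genes under that fit. In that comparison 24 of the 29 members lay above 0 with a median of 0.26, against a median of -0.01 over all genes, 48.4% of which lay above 0. Each pattern was compared with its own vehicle.

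**Figure D4:**
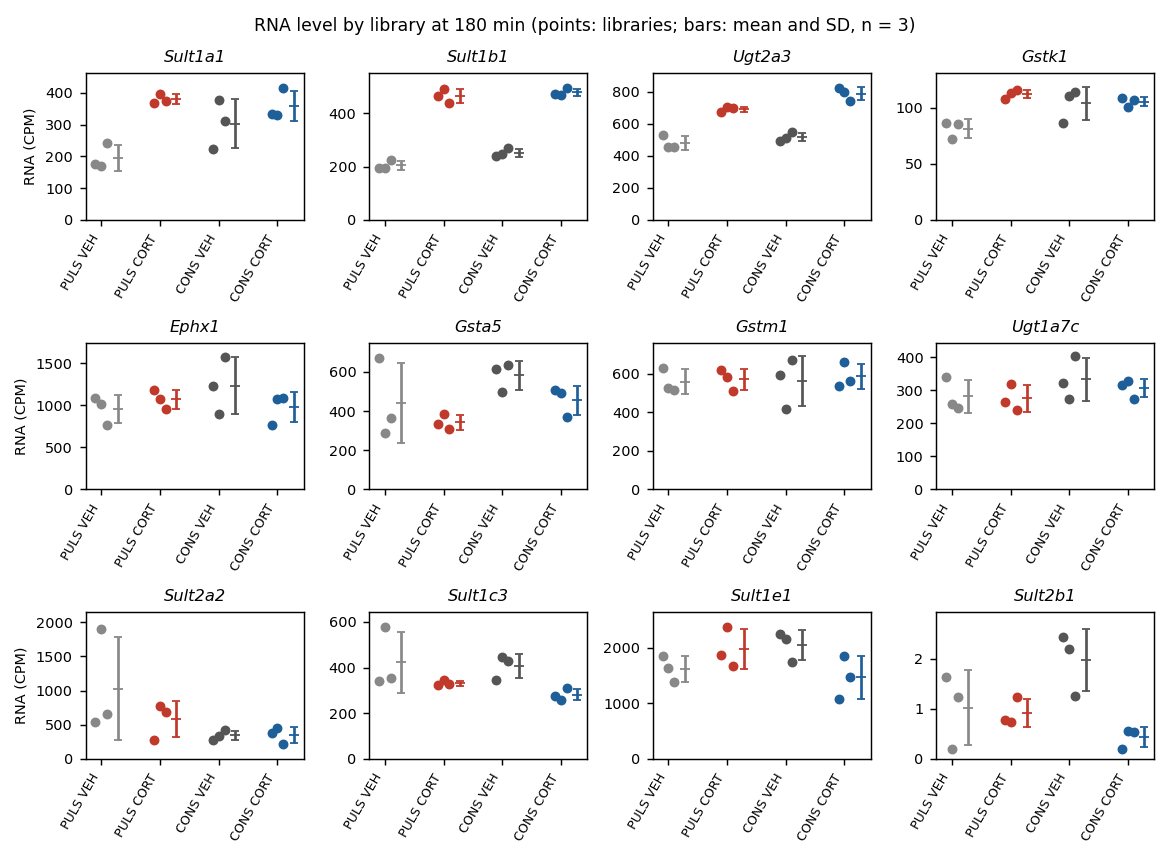
RNA level (CPM) of 12 members in the 4 groups at 180 min, with each library as a point and the mean and SD (n = 3) as a bar beside it. Sult1b1 has 194, 196 and 224 CPM in PULS VEH and 466, 492 and 438 CPM in PULS CORT, and the groups of Ephx1, Gstm1 and Ugt1a7c overlap.

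GR regions and calls were set side by side. Of the members with pSer2 Pol2 tags, 20 had a GR region within 50 kb and 14 had none. At CONS_140, 3 of the 20 were raised and 0 of the 14. Over all genes tested the shares were 2.62% with a GR region and 0.0549% without. At PEAK_140, 3 of the 20 and 3 of the 14 were lowered, against 1.36% and 0.416% over all genes. In RNA, 16 tested members had a GR region and 13 had none. Under PULS, 2 of the 16 were raised (all such genes 5.41%), and under CONS, 2 of the 16 (all such genes 11.2%). Of the 13, 0 were raised, and the member that fell under CONS, Sult2b1, had none. These counts are small and were not tested.

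Related genes were grouped in lists by role. Of 10 genes of xenobiotic sensing, 4 were raised and 1 lowered in RNA under CONS (all genes 4.45% and 4.75%), and 1 was raised under PULS (all genes 1.79%). Nr1i2, the pregnane X receptor, rose by 1.62 (SE 0.14, adjusted p = 1.23e-06) under CONS and 0.97 (SE 0.14, adjusted p = 0.000666) under PULS on the log2 scale. Nr1i3, the constitutive androstane receptor, rose by 1.03 (SE 0.26, adjusted p = 0.0135), and Ahr, the aryl hydrocarbon receptor, by 0.61 (SE 0.15, adjusted p = 0.0141) under CONS. Ppara, a receptor for fatty acids, rose too (adjusted p = 0.00197). Nfe2l2, which encodes the oxidative stress factor NRF2 that drives many Gst genes, fell at -1.21 (SE 0.17, adjusted p = 0.000189). Its pSer2 Pol2 also fell at PEAK_140, at -2.38 (SE 0.33, adjusted p = 0.00611), whereas Nr1i2 and Nr1i3 pSer2 Pol2 rose at CONS_140, at 1.89 (SE 0.33, adjusted p = 0.0249) and 2.09 (SE 0.34, adjusted p = 0.0166). The highest mean RNA levels for sensing, with log2 differences, were those of Hnf4a (400 CPM, -0.03 under PULS and -0.23 under CONS), Rxra (270 CPM, 0.42 under PULS and 0.57 under CONS) and Nfe2l2 (155 CPM, -0.43 under PULS and -1.21 under CONS).

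Of 10 tested genes that supply cofactors, 2 were lowered in RNA under CONS (all genes 4.75%) and 1 under PULS (all genes 2.44%), with none raised. Ugp2, which makes UDP-glucose, fell at -0.85 (SE 0.26, adjusted p = 0.0389) and Gclm, a subunit of the first enzyme of glutathione synthesis, at -0.89 (SE 0.20, adjusted p = 0.00817) under CONS. Papss1, which makes the sulfonate donor PAPS, fell at -0.83 (SE 0.20, adjusted p = 0.0264) under PULS. The highest mean RNA levels for cofactor supply, with log2 differences, were those of Ugp2 (342 CPM, -0.64 under PULS and -0.85 under CONS), Papss2 (244 CPM, 0.24 under PULS and -0.06 under CONS) and Ugdh (122 CPM, -0.09 under PULS and -0.33 under CONS). Of 13 tested genes of other conjugations, 2 rose in RNA under CONS (all genes 4.45%). Nnmt, which methylates nicotinamide, rose by 1.40 (SE 0.23, adjusted p = 0.000670) and As3mt, an arsenic methyltransferase, by 0.71 (SE 0.20, adjusted p = 0.0260), while Baat, which conjugates bile acids, was at -0.75 (SE 0.11, adjusted p = 0.000224). Of 4 genes of deconjugation, Arsb alone was raised, by 0.64 (SE 0.11, adjusted p = 0.000922) under CONS (all genes 4.45%). Among the highest mean RNA levels for other conjugation, with log2 differences, were those of Mgst1 (1144 CPM, 0.19 under PULS and -0.41 under CONS) and Baat (578 CPM, -0.14 under PULS and -0.75 under CONS). The highest mean RNA levels for deconjugation, with log2 differences, were those of Arsb (57.3 CPM, 0.34 under PULS and 0.64 under CONS), Sts (26.8 CPM, 0.26 under PULS and 0.41 under CONS) and Gusb (25.5 CPM, 0.33 under PULS and -0.03 under CONS).

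Of 13 tested transporters, 2 were lowered in RNA under CONS (all genes 4.75%) and 0 under PULS (all genes 2.44%), and 4 were lowered in pSer2 Pol2 at PEAK_140 (all genes 0.634%). In RNA, Slco1b2, an uptake carrier for organic anions, was at -0.69 (SE 0.12, adjusted p = 0.00133) and Abcg2, an efflux pump, at -0.73 (SE 0.13, adjusted p = 0.000971). In pSer2 Pol2 at PEAK_140, Slco1b2 was at -2.24 (SE 0.30, adjusted p = 0.00586), Slc22a8 at -2.62 (SE 0.38, adjusted p = 0.00714), Slco1a4 at -2.21 (SE 0.39, adjusted p = 0.0204) and Abcc2, which exports conjugates into bile, at -1.65 (SE 0.33, adjusted p = 0.0381). The highest mean RNA levels for transport, with log2 differences, were those of Slco1b2 (1402 CPM, -0.24 under PULS and -0.69 under CONS), Abcc2 (984 CPM, -0.17 under PULS and -0.48 under CONS) and Slco1a1 (641 CPM, -0.02 under PULS and -0.03 under CONS). As a check of the CORT treatment, Fkbp5, Tsc22d3 and Per1 were all raised in RNA in both patterns, by 2.09 to 3.12 on the log2 scale.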

How the data were processed

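GR and pSer2 Pol2 ChIP-seq and total RNA-seq were analysed from the deposited tables. Per the submitters' processing notes and the study's methods, ChIP reads were trimmed with Trimmomatic, mapped to rn6 with bowtie2 and quantified with HOMER. The deposited ChIP values are log2 tags, shrunk at low tags and with input subtracted. For GR, the header's command scales to total tags and the methods to tags within binding regions. The medians of the GR libraries over all regions ran from -0.86 (VEH replicate 2) to 4.04 (PEAK_140 replicate 1). Which scaling the values carry was not tested. The deposited RNA values are raw counts per gene made by the authors with STAR and featureCounts (Ensembl annotation). The strand setting was not given in the sources used here, and how reads that fit several relatives were assigned was not tested. Tables of the authors' own comparisons (fold changes and p-values) were not used.

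ChIP values of all 10 libraries per assay were fitted with limma 3.58.1 (trend), pSer2 Pol2 over 38315 regions of 16568 genes. Counts were fitted with edgeR 4.0.16 quasi-likelihood and TMM scaling for 14092 genes with more than 10 reads over 12 libraries. P-values were Benjamini-Hochberg adjusted over each whole table, and a call needed adjusted p under 0.05 and over 1.5-fold. The p-values measure the spread between these libraries. Named genes were all called members, the 3 of highest mean CPM in each family and the members nearest to called GR regions. In the related lists these were members called in RNA or in pSer2 Pol2 where described, and the 3 of highest mean CPM. A gene of the list of other conjugations is not reported here. The members and lists were chosen with earlier results of these data known, and the contrast of the falls, the half-site and the printed promoters after values were seen. One GR CONS_140 library whose number is written 25 was taken as replicate 2. Same-numbered pSer2 Pol2 libraries deviated together (correlations 0.15 to 0.55, found in the data, since no source states that the numbers share a batch). Alternatives were centring, no trend, only the libraries compared, the block, other windows and filters, RLE scaling, DESeq2 1.42.0 and each library left out. The scripts were tested on simulated data.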

Additional observations from a re-analysis of the deposited data

Results flagged for a closer look

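For 14 of the 26 GR regions near the conjugating enzymes, the fall from 140 to 180 min differed between pulsatile and constant CORT by limma, tested as the fall of PULS minus the fall of CONS (all regions raised 43.6%). The differences on the log2 scale were Sult1e1 -7157 (6.03, adjusted p = 0.00377), Ugt2b +4812 (4.56, adjusted p = 0.0337), Sult1e1 -31942 (3.96, adjusted p = 0.0359), Gstm4 -31412 (4.58, adjusted p = 0.0263), Ugt2b +380 (5.71, adjusted p = 0.00592), Sult1c3 +1896 (5.88, adjusted p = 0.0144), Gstm4 +4164 (3.90, adjusted p = 0.00938), Gsta1 -16188 (4.66, adjusted p = 0.00649), Sult1e1 -15692 (4.98, adjusted p = 0.0378), Gstm4 +14188 (4.03, adjusted p = 0.0319), Ugt2b -11838 (1.96, adjusted p = 0.0344), Ugt2a3 +7602 (5.15, adjusted p = 0.00812), Ugt2a3 -9054 (2.71, adjusted p = 0.0109) and Sult1a1 -64 (3.82, adjusted p = 0.0430). With every library centred to the same median, 0 of the 14 passed the test. The regions were also picked as peaks in these same libraries, with 0 of them from NADIR_180, as given above. The NADIR_180 libraries, which enter each of these values, stood apart from each other, as given above, and the part of this in the differences was not tested.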

How the results depend on the processing

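Centring each library on its median turned 33 GR differences below 0. For PEAK_140 against VEH they were Ugt2b +4812 -0.87, Sult1e1 -31942 -0.55, Gstm4 -31412 -0.62, Sult1c3 +1896 -0.98, Gstm6 -8910 -1.10, Ugt2b35 +3694 -0.24, Gstt4 -5018 -0.50, Ephx2 +580 -1.39, Sult1e1 -22469 -0.85, Gstm1 +4258 -0.81 and Ugt1a7c +1784 -0.85. For CONS_140 against VEH they were Gstm4 -31412 -1.12, Gstm6 -8910 -0.30, Gstm1 +4258 -0.29 and Ugt1a7c +1784 -1.31. For CONS_180 against VEH they were Gstm4 -31412 -0.95, Sult1c3 +1896 -1.19, Ugt2b35 +3694 -0.12, Gstt4 -5018 -0.069, Ugt2b -11838 -0.55, Ugt2b -49854 -0.36 and Gstt1 +82 -3.36. For PEAK_140 against NADIR_180 they were Ugt1a7c -3498 -0.11, Ugt2b35 +3694 -0.38, Ugt2b -11838 -0.67, Ephx2 +580 -0.45, Ugt2a3 -9054 -0.36 and Ugt2b -49854 -0.40. For CONS_180 against NADIR_180 they were Gstm4 +4164 -0.080, Ugt2a3 -9054 -0.66 and Ugt2b -49854 -0.84. For the fall of PULS minus CONS they were Ugt2b -11838 -1.43 and Ugt2a3 -9054 -0.68. The Gstt1 difference had not been called before centring and was called lower after it. Centring changed the counts of GR regions called to 3 for PEAK_140, 0 for NADIR_180, 3 for CONS_140 and 1 for CONS_180 against VEH, to 2 and 0 for PEAK_140 and CONS_180 against NADIR_180, and to 0 for the fall. It changed the counts of pSer2 Pol2 members called to 14 for PEAK_140, 1 for NADIR_180, 8 for CONS_140 and 6 for CONS_180 against VEH, to 6 and 3 for PEAK_140 and CONS_180 against NADIR_180, to 3 for PEAK_140 against CONS_140 and to 3 for the fall. A fit on only the libraries compared gave 0 GR regions for NADIR_180 and 10 for CONS_180 against NADIR_180, and 0 pSer2 Pol2 members for PEAK_140, CONS_140 and CONS_180 against VEH and for PEAK_140 and CONS_180 against NADIR_180. With no variance trend, 3 pSer2 Pol2 members were called for CONS_180 against VEH and 3 against NADIR_180. With 1 region a gene, 1 was called for the fall. A window of 10 kb left 15, 1, 12 and 12 GR regions called for PEAK_140, NADIR_180, CONS_140 and CONS_180 against VEH, 11 and 10 against NADIR_180 and 8 for the fall, since fewer regions were counted. A window of 100 kb gave 4 for NADIR_180. In RNA, 4 members passed under PULS with no fold threshold. DESeq2 called 1 for the difference of responses and 1 between vehicles, and no filter on low counts gave 2 between vehicles. Shares of all GR regions after centring or in a fit on only the libraries compared are not given. Nor are shares of all genes under these RNA settings. Other causes were not tested.

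With 1 library left out at a time, GR regions called ranged from 21 to 24 for PEAK_140, 2 to 6 for NADIR_180, 15 to 21 for CONS_140, 17 to 21 for CONS_180, 14 to 20 for PEAK_140 against NADIR_180, 7 to 17 for CONS_180 against NADIR_180, 0 to 2 for PEAK_140 against CONS_140 and 7 to 15 for the fall. The 7 for CONS_180 against NADIR_180 came without either CONS_180 library, and the 7 for the fall without either PEAK_140 library. The pSer2 Pol2 members called ranged from 0 to 6 for PEAK_140, 0 to 0 for NADIR_180, 0 to 9 for CONS_140, 0 to 1 for CONS_180, 0 to 3 and 0 to 1 for PEAK_140 and CONS_180 against NADIR_180, 0 to 13 for PEAK_140 against CONS_140 and 0 to 13 for the fall. RNA members called ranged from 2 to 3 under PULS, 1 to 4 under CONS, 0 to 2 for the difference of responses and 0 to 0 between vehicles. The third under PULS was Ugt2a3, without PULS VEH replicate 1. The count under CONS was 1 without CONS CORT replicate 1. Shares of all GR regions and of all RNA genes in these fits are not given.

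With the replicate number as a block, 2 pSer2 Pol2 members were called for PEAK_140 against CONS_140 and 1 for the fall. Without VEH libraries and without the replicate block, 1 was called for PEAK_140 against NADIR_180. Contrasts with VEH in the ChIP could not be blocked, since VEH carries no number. In GR and RNA the numbers did not pair the libraries (correlations from -0.03 to 0.07 and from -0.05 to 0.08). There the block gave 13 GR regions for the fall in place of 14, and added Ephx2 at 0.76 under CONS, for 4 in all. Over all alternatives, 32 of 1901 recomputed values of called results reversed and 375 lost the call, and 134 of 7146 values of uncalled results gained one. Values uncalled both before and after that changed sign were not counted as reversed.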
